A study of Arabidopsis thaliana with 12 samples.

Results

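The genes described here are the 34 Arabidopsis genes of phosphate sensing, transport and scavenging, out of 27655 genes listed in the deposited tables. They were chosen by name and function, with earlier results of these data known. The list held 4 SPX sensors, 3 transcription factors, 3 regulators of transporter amount and the 9 PHT1 uptake transporters. It also held 4 export and storage transporters, 3 intracellular phosphatases, 7 purple acid phosphatases and the ribonuclease RNS1. Enough reads for a test were found for 28 of them. SPX3, PHT1;6, PHT1;7, PHT1;8, PAP23 and PAP25 had too few and are given as read counts.

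The study sequenced polyadenylated RNA of whole Arabidopsis thaliana seedlings and compared a chloroplast mutant with wild type at 2 ages. The 4 groups were geralt at 12 days, with libraries 5, 9 and 11, wild type at 12 days, with libraries 6, 10 and 12, geralt at 5 days, with libraries 1, 3 and 7, and wild type at 5 days, with libraries 2, 4 and 8. The mutant is the single insertion line SALK_116579, which the titles call phr2, and the wild type is Col (N6000). All plants grew on B5 medium with 1% sucrose, 10 h light and 14 h dark, and no label describes a phosphate treatment. The gene PHR2 that gives the mutant its title name belongs to the photolyase family and is not the phosphate regulator PHR1. PHR2 (AT2G47590), the gene named in the titles of the mutant, had 30.5, 24.5 and 31.8 CPM in the geralt libraries at 12 days, against 193, 207 and 203 CPM in wild type, and was lower in all 3 geralt libraries at 5 days too (log2 fold change -2.80 ± 0.37, edgeR adjusted p = 0.0193 at 12 days, and -2.68 ± 0.37, edgeR adjusted p = 0.0128 at 5 days). CPM are TMM-scaled counts per 1000000 gene reads throughout. Libraries held 41.6 to 115.03 M gene reads. The labels speak of biological replicates without saying how plants were pooled. A p-value here sets a difference of group means against the spread between these libraries, estimated over all 4 groups. That shared estimate serves groups that need not vary alike. With only the 6 libraries of 12 days, edgeR called (adjusted p under 0.05) 0 members and 7 genes, against 4 and 169 in the shared fit. With only those of 5 days it called 3 members and 960 genes, against 0 and 55.

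Plants take up inorganic phosphate through PHT1 proton symporters of the root and load it into the xylem through PHO1. When phosphate is ample, SPX proteins bound to inositol pyrophosphates hold the MYB factor PHR1 off its targets. When phosphate runs short, PHR1 is released and raises transporters, phosphatases, a secreted ribonuclease, SPX genes and the noncoding RNAs IPS1 and AT4, while PHO2 and NLA, which mark transporters for breakdown, are held down by microRNAs. PHR1 and its relatives bind the sequence GNATATNC, called P1BS, which reads the same on both strands.

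The 250 bases before the gene start are shown for 3 of the 4 members that passed the test at 12 days and for GDPD1, a starvation marker with 2 copies of the motif, with each match to GNATATNC in capitals. The strand is that of the gene, and the sequences are those of RefSeq for TAIR10.1. They lie at chr1:27466349-27466598 (PS2, minus strand), chr5:17415448-17415697 (PHT1;2, plus strand), chr2:19266457-19266706 (PAP14, minus strand) and chr3:350011-350260 (GDPD1, minus strand).
PS2: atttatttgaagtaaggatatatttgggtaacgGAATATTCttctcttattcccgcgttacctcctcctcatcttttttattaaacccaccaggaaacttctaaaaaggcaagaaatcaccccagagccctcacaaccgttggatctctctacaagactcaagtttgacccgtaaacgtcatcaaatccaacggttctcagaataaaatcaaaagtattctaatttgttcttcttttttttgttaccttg
PHT1;2: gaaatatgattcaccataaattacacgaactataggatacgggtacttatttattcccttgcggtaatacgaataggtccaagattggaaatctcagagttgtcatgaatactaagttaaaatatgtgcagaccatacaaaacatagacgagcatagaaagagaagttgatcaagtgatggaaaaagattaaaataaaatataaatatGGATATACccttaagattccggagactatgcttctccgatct
PAP14: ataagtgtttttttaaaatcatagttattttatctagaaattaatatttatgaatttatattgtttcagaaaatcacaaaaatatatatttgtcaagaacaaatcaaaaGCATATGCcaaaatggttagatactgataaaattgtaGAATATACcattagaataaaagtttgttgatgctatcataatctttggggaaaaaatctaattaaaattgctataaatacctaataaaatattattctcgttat
GDPD1: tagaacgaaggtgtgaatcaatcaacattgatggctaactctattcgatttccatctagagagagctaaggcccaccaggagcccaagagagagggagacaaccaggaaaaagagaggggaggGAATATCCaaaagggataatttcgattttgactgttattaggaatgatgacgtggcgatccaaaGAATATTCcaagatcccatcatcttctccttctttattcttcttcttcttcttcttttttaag
The first base of the gene is base 0 here, and a match is placed by its own first base. The match of PS2, GAATATTC, began at base -217, that of PHT1;2, GGATATAC, at base -42. PAP14 had GCATATGC at base -141 and GAATATAC at base -104, and GDPD1 had matches at bases -127 and -63. The fourth member past the test, PHT1;4, held GAATATAC from base -7, which runs over its annotated start. Over the window from 250 bases before to 50 bases after that start, 12 of the 34 members (35.3%) held at least 1 match, against 1716 of 27444 chromosomal genes (6.3%). In the 1000 bases before the start the counts were 20 of 34 members (58.8%) and 20.3% of those genes. A match describes these letters and does not show that a factor binds there.

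Among the 28 members tested at 12 days, 4 fell in geralt and none rose: the phosphatase PS2, the purple acid phosphatase PAP14 and the uptake transporters PHT1;2 and PHT1;4. Over all 21122 genes tested, 0.365% passed in the lower direction and 0.436% in the higher one. The member log2 fold changes had a median of -0.58, and 22 of 28 lay below 0. All tested genes had a median of -0.02, and 51.6% of them lay below 0. These are descriptions, since a member with few reads was tested only if some group was high. The 3 geralt libraries lay wholly below the 3 wild-type ones for 6 members (background 8.91% of genes) and wholly above them for 1 member (background 10.2%). An unadjusted p under 0.05 was found for 15 members, of which 13 were lower (background 9.49% of genes lower and 9.47% higher).

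**Figure D1:**
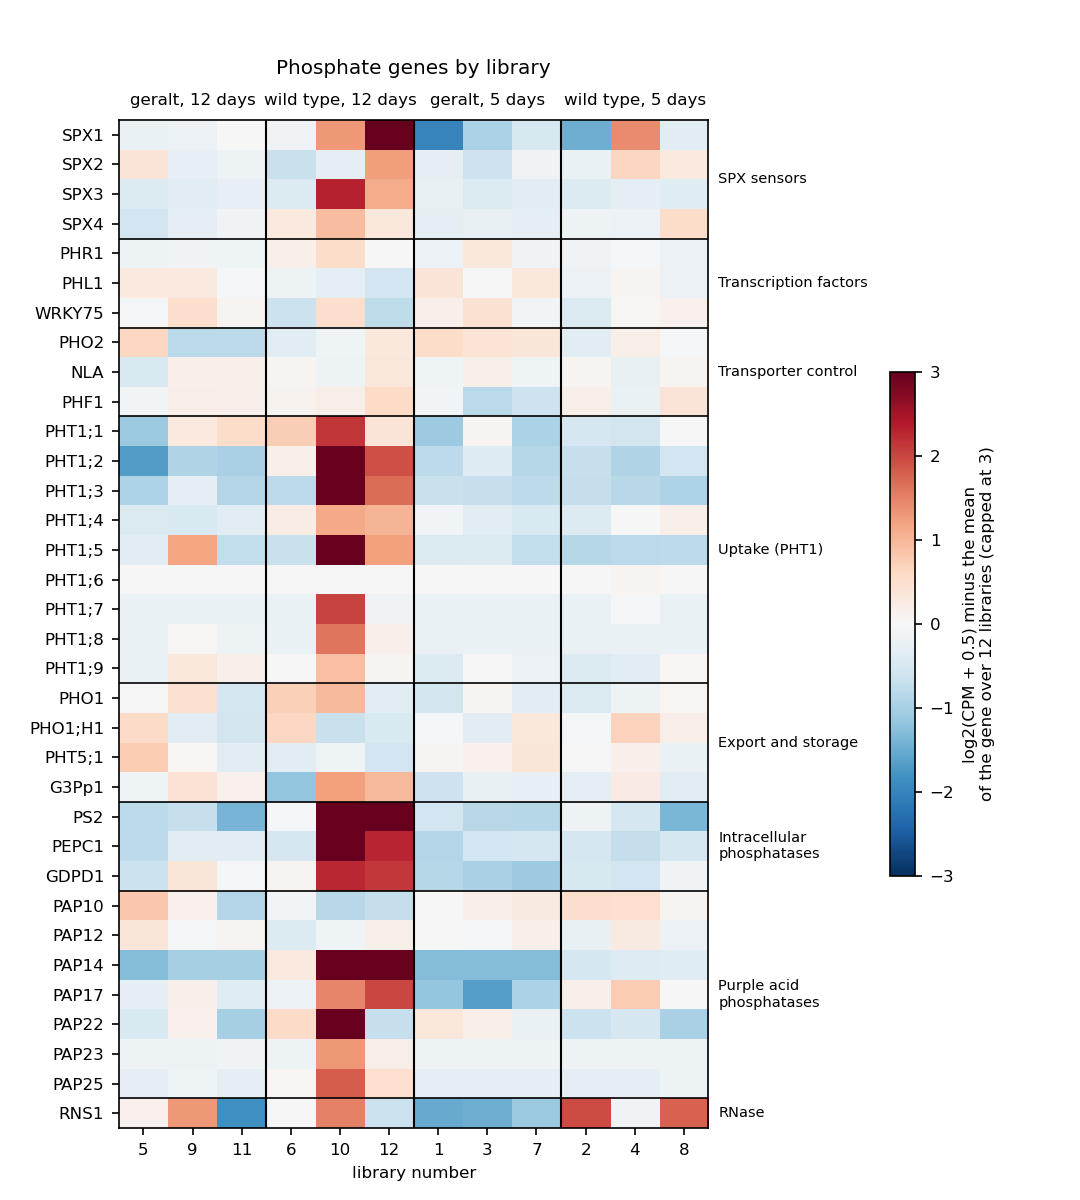
Level of the 34 genes (rows, by role) in the 12 libraries (columns, by group and library number), as log2(CPM + 0.5) minus the mean of the gene over the 12 libraries, red for higher and blue for lower, with the scale capped at 3. Wild-type library 10 is the highest of the 12 for 20 of the 34 genes, and wild-type library 12 for 5.

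The 3 wild-type libraries at 12 days differed widely among themselves. Library 10 was the highest of all 12 libraries for 20 of the 34 members and for 15 of the 28 tested (background 15.1% of genes). Library 12 was highest for 5, all of them tested (background 20.7%), and library 6 for none. Among tested members, 13 reached at least 3 times their library 6 level in library 10 (background 3.54%) and 11 did so in library 12 (background 3.06%). In both libraries 9 did so, for which the share of all genes was not counted. Library 6 itself lay above all 3 geralt libraries at 12 days for 11 of the 34 members and for 10 of the 28 tested (background 25.4% of genes).

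Whole seedlings vary in their share of root, and many of these genes act in roots, so 17 root marker genes were read in the same libraries. All 17 were detected in 11 of the libraries, and WER was at 0 in wild-type library 12. Their summed level, without the very abundant PYK10, was 179, 363 and 194 CPM in geralt libraries 5, 9 and 11 at 12 days, against 418, 777 and 124 CPM in wild-type libraries 6, 10 and 12. With PYK10 the sums were 3331, 2068 and 2632 CPM in geralt, against 3002, 1511 and 685 CPM in wild type. The sum of library 10 came mostly from PRP3 with 311 CPM, LRX1 with 143 CPM and CASP1 with 115 CPM. Library 10 was the highest of the 12 libraries for 7 of the 17 markers (background 15.1% of genes). But it was the lowest for WOX5 at 0.0259 CPM, and WER was at 0.207 CPM there. Library 12 had the lowest root sums of all 12 libraries and was the lowest for 11 of the 17 markers. The share of all genes that were lowest in library 12 was not counted. None of the 17 passed the test at 12 days, with a median log2 fold change of -0.31, and at 5 days the median was 0.21 with none past the test. The part of root share in the library 10 values was not tested. In bulk RNA, fewer root cells and less RNA per root cell cannot be told apart.

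PS2 (AT1G73010, TAIR10 chr1:27464528-27466348, minus strand, as for the other gene coordinates given), a pyrophosphatase of the HAD family that is a marker of phosphate starvation, had 1.17, 1.33 and 0.615 CPM in geralt libraries 5, 9 and 11 at 12 days, against 2.33, 43.8 and 29.6 CPM in wild-type libraries 6, 10 and 12. All 3 geralt libraries were below all wild-type ones, and library 6 stood much closer to geralt than to its own group. At 5 days PS2 had 1.48, 1.16 and 1.14 CPM in geralt, against 2.15, 1.53 and 0.635 CPM in wild type, with overlap. The log2 fold change at 12 days was -4.60 ± 0.83 (SE, edgeR adjusted p = 0.0352). In library 12, where the root sums were lowest, PS2 was 29.6 CPM, and the part of root share was not tested. Without libraries 10 and 12 the log2 fold change was -1.17, with library 6 as the lone wild-type library assumed to vary like the other groups. Those libraries held the highest PS2 levels, so leaving them out had to shrink the value.

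The other intracellular phosphatases had lower means in geralt without passing the test. PEPC1, a phosphatase of phosphocholine and phosphoethanolamine, had 0.325, 0.622 and 0.615 CPM in geralt at 12 days, against 0.495, 14.5 and 6.38 CPM in wild type (log2 fold change -3.77 ± 0.85, edgeR adjusted p = 0.0609). GDPD1, a plastid glycerophosphodiester phosphodiesterase that frees glycerol 3-phosphate from lipid breakdown products, had 23.5, 48.0 and 35.2 CPM in geralt, against 38.9, 178 and 161 CPM in wild type (log2 fold change -1.83 ± 0.45, edgeR adjusted p = 0.0742). In both genes libraries 10 and 12 were high and library 6 lay within the geralt range. At 5 days GDPD1 had 20.1, 18.6 and 17.0 CPM in geralt, against 26.3, 24.5 and 34 CPM in wild type, without overlap and with a log2 fold change of -0.61 ± 0.43 (edgeR adjusted p = 0.566).

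**Figure D2:**
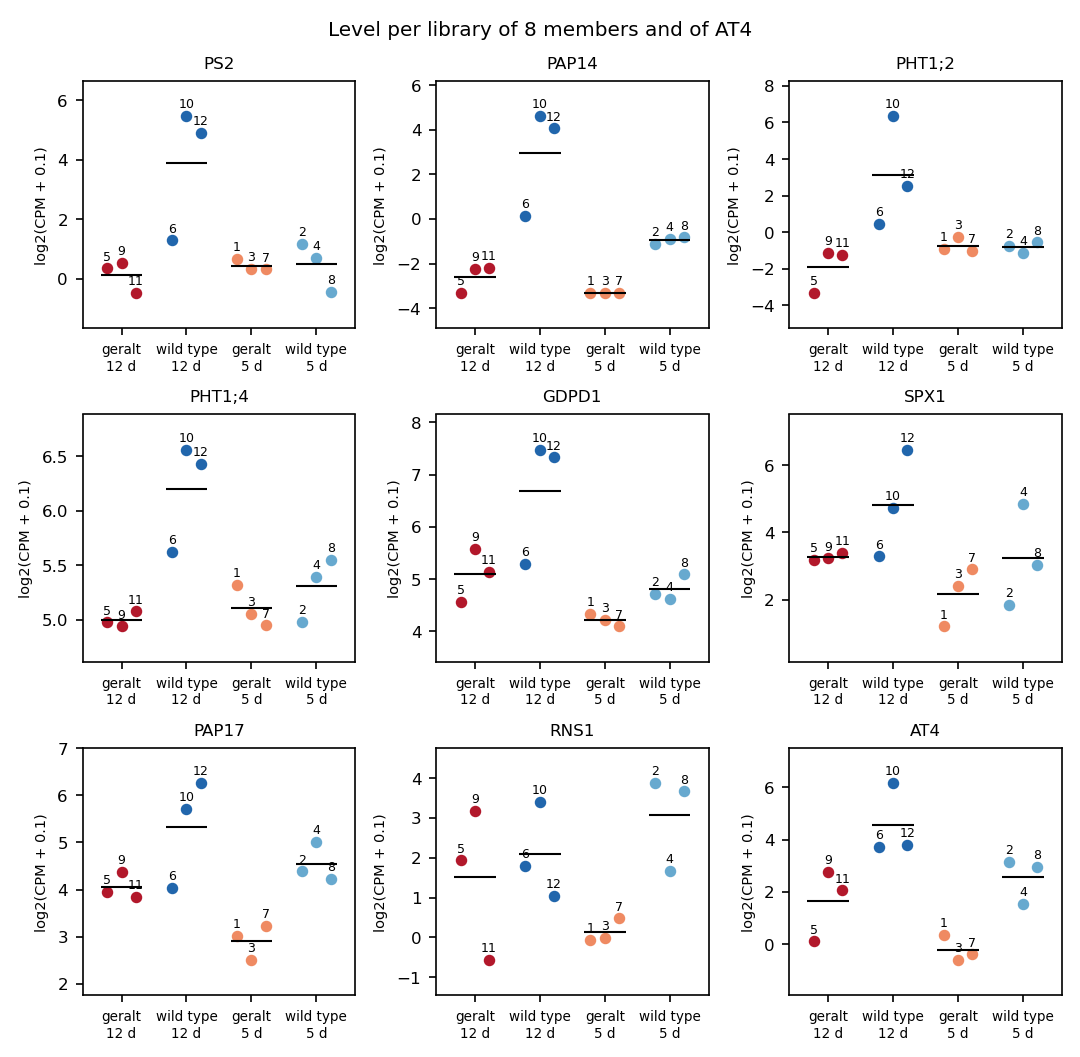
Level per library of 8 members and of AT4 on a log2(CPM + 0.1) axis, with library numbers beside the points and a bar at the mean of the 3 log values of each group. In the panels of PS2, PAP14, GDPD1 and PAP17 wild-type libraries 10 and 12 stand above library 6, and RNS1 and AT4 are lower in geralt than in wild type at 5 days.

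PAP14 (AT2G46880, chr2:19264573-19266456, minus strand), a purple acid phosphatase of the class that frees phosphate from organic esters, had 0, 0.111 and 0.119 CPM in geralt libraries 5, 9 and 11 at 12 days, against 1.01, 24.2 and 16.6 CPM in wild-type libraries 6, 10 and 12. The reads summed to 11 in geralt and 2389 in wild type. Every wild-type library was above every geralt library, library 6 included. The log2 fold change was -7.51 ± 1.2 (SE, edgeR adjusted p = 0.0352), and -3.71 without libraries 10 and 12, the highest for this gene. At 5 days PAP14 had 0 reads in all 3 geralt libraries, against 0.359, 0.443 and 0.462 CPM in wild type, which came from 96 reads. With a floor of 3 reads over the geralt group this was at least 27.7-fold higher in wild type, and the test gave an edgeR adjusted p of 0.117.

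PAP17, a phosphatase raised by starvation and senescence, had 15.4, 20.6 and 14.3 CPM in geralt at 12 days, against 16.4, 52.3 and 76.3 CPM in wild type (log2 fold change -1.53 ± 0.44, edgeR adjusted p = 0.109). At 5 days it had 7.99, 5.58 and 9.29 CPM in geralt, against 20.8, 32 and 18.6 CPM in wild type (log2 fold change -1.65 ± 0.44, edgeR adjusted p = 0.120). The groups overlapped at 12 days through library 6 and did not overlap at 5 days. PAP22 had 1.82, 3.00 and 1.11 CPM in geralt at 12 days, against 4.26, 29.5 and 1.5 CPM in wild type (log2 fold change -2.57 ± 0.82, edgeR adjusted p = 0.136). Its wild-type mean rested on library 10, and without that library the value was -0.54 (edgeR adjusted p = 0.642).

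PAP10, a phosphatase bound to the root surface, and PAP12, a secreted one, had positive log2 fold changes at 12 days, 0.68 ± 0.35 and 0.23 ± 0.21, neither past the test. PAP10 was 117, 73.0 and 36.3 CPM in geralt, against 63.5, 37.5 and 40.5 CPM in wild type, so the groups overlapped. PAP25 had 3 reads in geralt and 104 in wild type at 12 days, 29.2 times as many in wild type after scaling to depth, with a 95% counting interval of 9.71 to 144. PAP23 had 1 read in geralt and 45 in wild type, 37.9 times as many with an interval of 6.46 to 1529. These 2 were in library 10 for the most part, at 1.66 CPM for PAP25 and 0.880 CPM for PAP23, against 0.141 and 0 CPM in library 6. Counting intervals cover counting error only, not the spread between libraries.

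RNS1, a secreted ribonuclease that recovers phosphate from RNA and is also raised by wounding and senescence, had its larger fold change at 5 days. It had 0.851, 0.884 and 1.29 CPM in geralt libraries 1, 3 and 7, against 14.5, 3.10 and 12.6 CPM in wild-type libraries 2, 4 and 8. No geralt library reached the lowest wild-type one. The log2 fold change was -3.32 ± 0.90 (SE), short of the threshold over all genes (edgeR adjusted p = 0.122). At 12 days RNS1 had 3.72, 8.91 and 0.575 CPM in geralt, against 3.38, 10.5 and 1.96 CPM in wild type, with overlap and a log2 fold change of -0.26 ± 0.82 (edgeR adjusted p = 0.892).

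Of the 9 PHT1 uptake transporters, 6 were tested, all with log2 fold changes below 0 at 12 days, and 2 of them fell. PHT1;4 (AT2G38940, chr2:16257157-16260253, plus strand), one of the main uptake transporters of the root with PHT1;1, had 31.4, 30.6 and 33.7 CPM in geralt libraries 5, 9 and 11, against 49.2, 94.3 and 86.1 CPM in wild-type libraries 6, 10 and 12. All wild-type libraries were above all geralt ones, and library 12 was close to library 10. The log2 fold change was -1.26 ± 0.25 (SE, edgeR adjusted p = 0.0449). Without libraries 10 and 12, the highest for this gene, it was -0.63. At 5 days PHT1;4 had 39.8, 33.2 and 30.8 CPM in geralt, against 31.5, 42.0 and 46.9 CPM in wild type, with overlap.

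PHT1;2 (AT5G43370, chr5:17415698-17417972, plus strand), a close copy of PHT1;1, had 0, 0.356 and 0.317 CPM in geralt at 12 days, against 1.29, 80.5 and 5.64 CPM in wild type. The groups did not overlap, but library 10 held most of the wild-type reads. The log2 fold change was -7.04 ± 1.43 (SE, edgeR adjusted p = 0.0461), and without library 10 it was -3.96 (edgeR adjusted p = 0.125). The coding sequences of PHT1;1 and PHT1;2, each 1575 bases long, are 97.7% identical, and 74.2% of the PHT1;1 reads and 69.5% of the PHT1;2 reads were unique in the deposited tables. How reads were shared between these genes is uncertain. On unique gene reads alone the PHT1;2 value was -7.17 (edgeR adjusted p = 0.0445).

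PHT1;1, the member with the highest group means per length, had 75.4, 201 and 241 CPM in geralt at 12 days, against 275, 730 and 217 CPM in wild type (log2 fold change -1.24 ± 0.51, edgeR adjusted p = 0.221). PHT1;3 had 0, 0.289 and 0.0198 CPM in geralt, against 0.0531, 52.6 and 2.56 CPM in wild type, so that library 6 lay within the geralt range (log2 fold change -7.54 ± 1.87, edgeR adjusted p = 0.0757). PHT1;5, which moves phosphate from source to sink organs, had 0.758, 3.02 and 0.436 CPM in geralt, against 0.477, 15.0 and 3.18 CPM in wild type (log2 fold change -2.15 ± 0.94, edgeR adjusted p = 0.244). For these 3 the wild-type mean was set mainly by library 10. Without libraries 10 and 12 the log2 fold changes of PHT1;3 and PHT1;5 were 0.89 and 1.55. Library 6 was then the lone wild-type library, with 3 and 27 reads of these genes.

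Of the least expressed transporters, PHT1;7, PHT1;8 and PHT1;9 were also highest in library 10. PHT1;7 had 0 reads in geralt and 75 in wild type at 12 days, at least 21.0-fold higher in wild type with a floor of 3 reads, and its level was 1.86 CPM in library 10. PHT1;8 had 5 reads in geralt and 61 in wild type, 10.3 times as many in wild type after scaling with a counting interval of 4.17 to 32.7. PHT1;9, which was tested, had a log2 fold change of -0.64 ± 0.89 (edgeR adjusted p = 0.734). PHT1;6 had no read in any library at 12 days and 4 reads at 5 days, all in wild-type library 4.

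**Figure D3:**
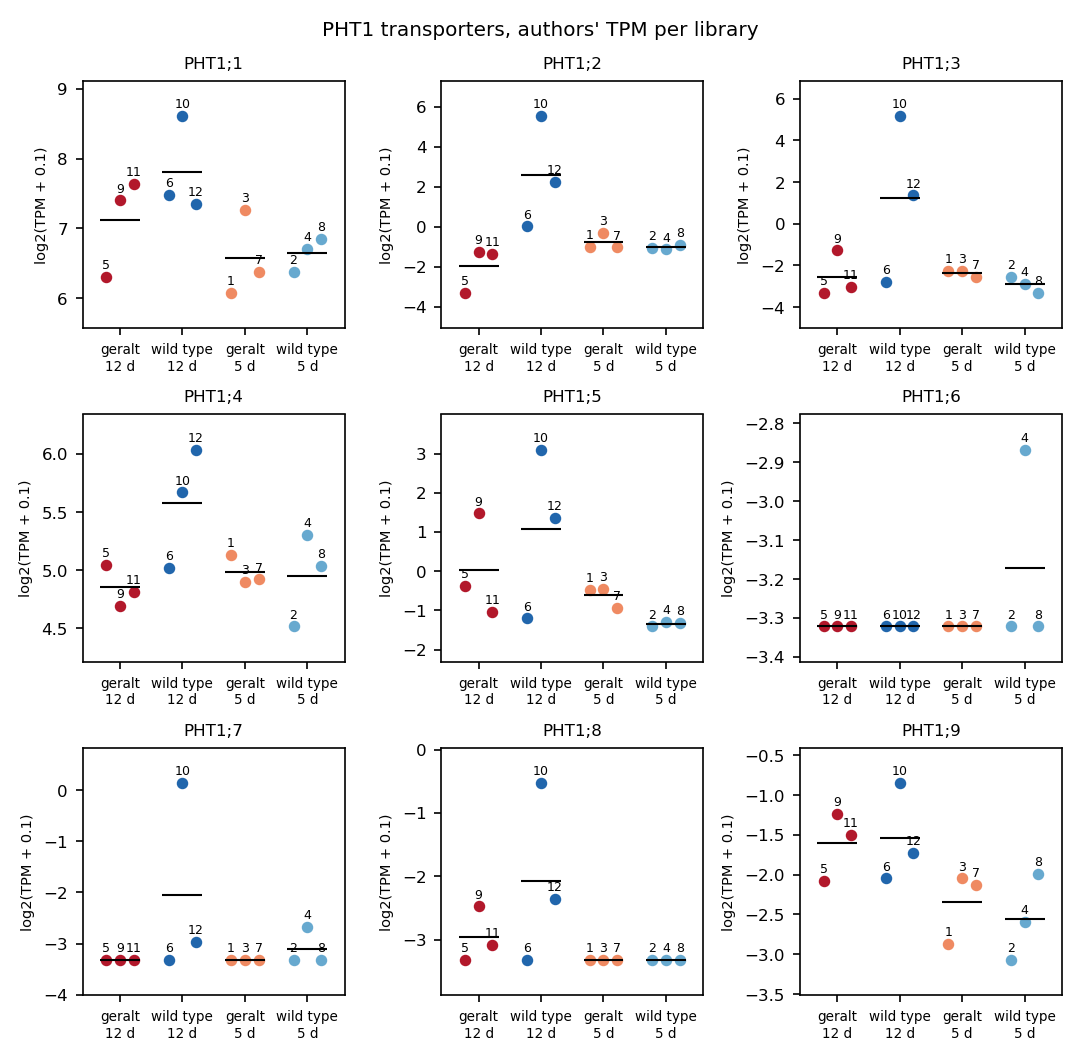
Level per library of the 9 PHT1 transporters on a log2(TPM + 0.1) axis, from the authors' TPM, with library numbers beside the points and a bar at the mean of the 3 log values of each group. Wild-type library 10 is the highest point in the panels of PHT1;1, PHT1;2, PHT1;3, PHT1;5, PHT1;7, PHT1;8 and PHT1;9, and in TPM PHT1;4 is highest in wild-type library 12.

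Per length, in the authors' TPM, PHT1;1 had the highest mean of the 34 members in every group and was the highest member in 11 of the 12 libraries, with PAP10 and PHO2 above it in geralt library 5 at 12 days. It averaged 149 ± 62.4 TPM in geralt and 244 ± 127 TPM in wild type at 12 days, and 102 ± 46.5 TPM in geralt and 101 ± 16.3 TPM in wild type at 5 days (SD, n = 3 each). The 9 transporters together summed to 113, 199 and 228 TPM in geralt libraries 5, 9 and 11, against 213, 533 and 238 TPM in wild-type libraries 6, 10 and 12. Outside library 10 the sum ran from 103 to 238 TPM. The 7 transporters other than PHT1;1 and PHT1;4 made up 17.3% of the sum in library 10 and 4.13% in library 12. In the other 10 libraries they made up 0.422% to 1.87%. At 12 days the next members per length were PAP10 with 73.3 ± 49.1 TPM and PHO1 with 66.1 ± 22.3 TPM in geralt, and GDPD1 with 106 ± 65.4 TPM and PHO1 with 64.3 ± 19.3 TPM in wild type, and in each group the SDs of these neighbours overlapped.

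None of the SPX sensors passed the test at either age. SPX1, a nuclear sensor that is itself raised by PHR1, had 8.98, 9.27 and 10.4 CPM in geralt at 12 days, against 9.69, 26.3 and 87.6 CPM in wild type (log2 fold change -2.11 ± 0.80, edgeR adjusted p = 0.191). Here library 12 was the highest, 3.33 times library 10, and without library 12 the value was -0.91. SPX4, a sensor in the cytosol that holds PHR1 there, had 10.2, 12.8 and 14.2 CPM in geralt, against 18.9, 29.8 and 19.4 CPM in wild type (log2 fold change -0.87 ± 0.25, edgeR adjusted p = 0.113). Its groups did not overlap at 12 days, nor at 5 days, where it had 12.4, 13.1 and 12.6 CPM in geralt, against 13.8, 13.6 and 22.8 CPM in wild type.

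SPX2 overlapped between groups at both ages and was highest in library 12. SPX3, a starvation marker, had 0, 1 and 3 reads in geralt at 12 days, against 0, 107 and 79 reads in wild-type libraries 6, 10 and 12. The summed reads were 39.1 times as many in wild type after scaling, with a counting interval of 15.0 to 145, and library 6 had none. SPX1 at 5 days had 2.21, 5.21 and 7.38 CPM in geralt, against 3.49, 28.7 and 8.15 CPM in wild type (log2 fold change -1.46 ± 0.79, edgeR adjusted p = 0.433). That difference rested on wild-type library 4, without which it was -0.24.

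None of the 3 transcription factors passed the test. PHR1 had 18.9, 19.6 and 19.3 CPM in geralt at 12 days, against 23.3, 30.8 and 20.9 CPM in wild type, lower in all 3 geralt libraries by a log2 fold change of -0.37 ± 0.20 (edgeR adjusted p = 0.326). PHL1, its close relative, was the member whose 3 geralt libraries lay above wild type at 12 days, with 26.7, 26.9 and 21.3 CPM in geralt, against 19.6, 18.0 and 14.4 CPM in wild type (log2 fold change 0.53 ± 0.20, edgeR adjusted p = 0.184). PHR1 is regulated largely through its protein, which these data do not measure. WRKY75, a factor raised by starvation, was at 0.668, 1.22 and 0.754 CPM in geralt, against 0.265, 1.22 and 0.202 CPM in wild type, with overlap.

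Regulators of transporter amount and the export and storage transporters showed no call. PHF1, which helps PHT1 proteins leave the endoplasmic reticulum, had 8.05, 10.0 and 9.58 CPM in geralt at 12 days, against 9.39, 9.84 and 13.3 CPM in wild type (log2 fold change -0.23 ± 0.26, edgeR adjusted p = 0.658). The ubiquitin conjugase PHO2 and the ubiquitin ligase NLA each had a log2 fold change of -0.13 at 12 days, with SE of 0.35 and 0.23. PHO2 was 159 CPM in geralt library 5, against 58.8 and 60.4 CPM in the other geralt libraries, so it was split within the mutant at 12 days. At 5 days PHO2 had 152, 137 and 134 CPM in geralt, against 83.6, 118 and 99.8 CPM in wild type. The groups did not overlap at that age, and PHO2 did not pass the test. PHT5;1, which moves phosphate into the vacuole, had 123, 75.4 and 58.4 CPM in geralt, against 57.8, 66.8 and 49.0 CPM in wild type (log2 fold change 0.57 ± 0.26, edgeR adjusted p = 0.257). PHO1, which loads phosphate into the xylem, its relative PHO1;H1 and the glycerol 3-phosphate permease homologue G3Pp1 had log2 fold changes of -0.51 ± 0.34, 0.05 ± 0.40 and -0.51 ± 0.46.

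**Figure D4:**
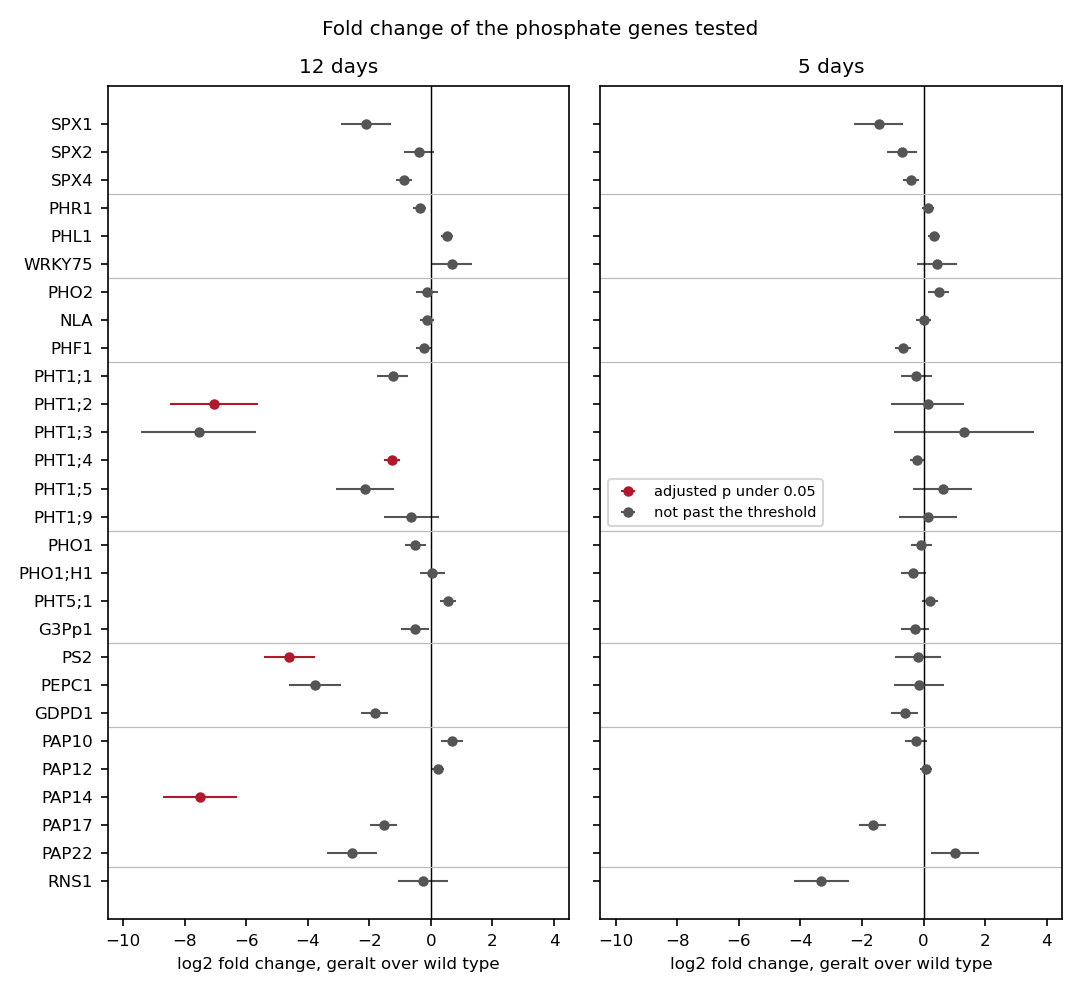
Log2 fold change of geralt over wild type for the 28 members tested, at 12 days (left) and 5 days (right), with bars of 1 SE, red where the adjusted p passed 0.05. The 4 red points are PHT1;2, PHT1;4, PS2 and PAP14 at 12 days, and PAP14 has no point at 5 days because its geralt libraries held 0 reads.

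The 4 calls at 12 days lay close to the threshold, with edgeR adjusted p from 0.0352 to 0.0461. None of the 4 passed when only the 6 libraries of 12 days were fitted, with edgeR adjusted p from 0.181 to 0.281, or when 1 of 8 single libraries was left out (geralt 1, 3, 5, 7, 9, wild type 2, 10, 12). PAP14 alone passed without geralt library 11, and PAP14 and PS2 passed without wild-type library 4 or without library 8. Without wild-type library 6 the members past the threshold numbered 9, all lower (background 1.1% of genes lower). Library 6 was the lowest wild-type library at 12 days for each of the 9, so leaving it out had to widen their differences. DESeq2 called 10 members lower at 12 days and none higher (background 3.44% of genes lower): the 4 above with PHT1;3, PEPC1, GDPD1, PAP17, PAP22 and SPX4. The authors' deposited table of their own test listed 12 of 33 members as lower at FDR under 0.05, among them SPX1, SPX3 and PAP25, and none as higher. Over all genes with an FDR in the authors' deposited table, 1.48% were lower and 1.17% higher.

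At 5 days no member passed edgeR's test, against 0.227% of all genes in the lower and 0.0331% in the higher direction. An unadjusted p under 0.05 was found for 4 members, PAP14, PAP17, RNS1 and PHF1, all lower in geralt (background 7.64% of genes lower and 6.5% higher). DESeq2 called 3 lower, PAP14, PAP17 and RNS1 (background 2.81% of genes lower), as did edgeR fitted on only the 6 libraries of 5 days (background 3.07%). The authors' deposited table listed SPX1, PAP14, PAP17 and RNS1 as lower and PAP22 as higher at 5 days, of 28 members with an FDR (background 5.51% of genes lower and 4.81% higher). PAP22 had 3.57, 3.15 and 2.31 CPM in geralt, against 1.56, 1.75 and 1.12 CPM in wild type, above wild type in all 3 libraries (log2 fold change 1.02 ± 0.79, edgeR adjusted p = 0.597). The member median at 5 days was a log2 fold change of -0.16, and 17 of 28 lay below 0 (background 49.4% of genes). Libraries of the geralt group were wholly below wild type for 5 members and wholly above for 3 (background 14.3% and 12.9% of genes).

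Between the ages, wild type gave log2 fold changes of 12 over 5 days above 0 for 21 of the 28 members. The other 7 lay below 0 (background 48.3% of genes below 0). But no gene of the 21122 passed the test (0.0% in each direction, with 4179 at an unadjusted p under 0.05). PS2 had 2.33, 43.8 and 29.6 CPM in wild type at 12 days, against 2.15, 1.53 and 0.635 CPM at 5 days, and its log2 fold change was 4.14 ± 0.81 (edgeR adjusted p = 0.142). GDPD1 had 38.9, 178 and 161 CPM at 12 days, against 26.3, 24.5 and 34 CPM at 5 days, a log2 fold change of 2.16 ± 0.45 (edgeR adjusted p = 0.142). In both genes the ages did not overlap in wild type, although library 6 was the nearest to the 5-day libraries. The member median was 0.74, where that of all genes was 0.02, and an unadjusted p under 0.05 was found for 12 members, 11 of them higher at 12 days (background 10.6% of genes higher and 9.17% lower). DESeq2 called 10 members in this contrast, all higher at 12 days (background 3.24% of genes higher), and without wild-type library 6 edgeR called 11, all higher (background 1.05%). Library 6 was the lowest wild-type library at 12 days for each of the 11, so leaving it out had to raise their 12-day means.

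In geralt the same contrast gave a member median of 0.15. PS2 had 1.17, 1.33 and 0.615 CPM in geralt at 12 days, against 1.48, 1.16 and 1.14 CPM at 5 days, and its log2 fold change was -0.28 ± 0.75. PAP17 had 15.4, 20.6 and 14.3 CPM at 12 days, against 7.99, 5.58 and 9.29 CPM at 5 days, without overlap (log2 fold change 1.14 ± 0.44, edgeR adjusted p = 0.972). An unadjusted p under 0.05 was found for 3 members, all higher at 12 days (background 2.56% of genes higher and 2.05% lower). The ages did not overlap for 4 members that were higher and 1 that was lower at 12 days (background 4.73% and 4.65%). No gene passed the test, with 974 of 21122 at an unadjusted p under 0.05, and DESeq2 called 60 genes and no member.

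**Figure D5:**
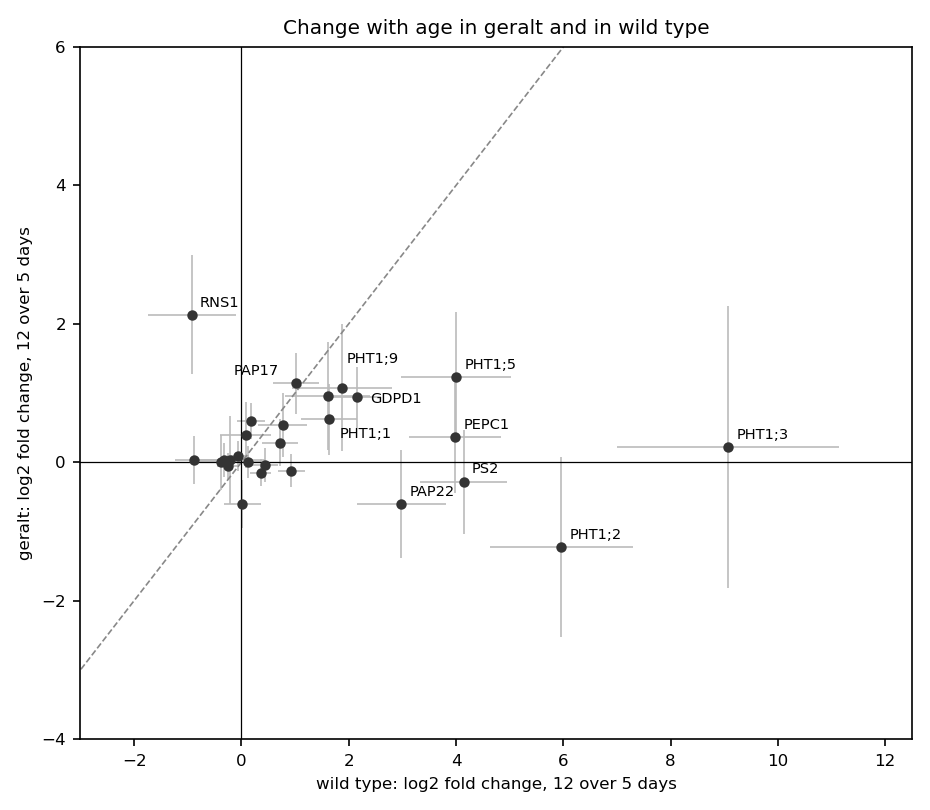
Log2 fold change of 12 over 5 days in geralt (vertical axis) against that in wild type (horizontal axis) for the tested members with reads in all 4 groups, with bars of 1 SE and a dashed line where both are equal. PHT1;3, PHT1;2, PS2, PEPC1, PHT1;5 and PAP22 lie far to the right of the line, and RNS1 lies above it.

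Whether the genotype difference itself changed with age was tested by the interaction, and no gene passed (0.0% in each direction, with 2185 genes at an unadjusted p under 0.05). The largest negative values among members were those of PHT1;3 at -8.85 ± 2.90, PHT1;2 at -7.18 ± 1.80, PS2 at -4.42 ± 1.08, PEPC1 at -3.63 ± 1.15 and PAP22 at -3.59 ± 1.13, all with an edgeR adjusted p of 0.438. An unadjusted p under 0.05 was found for 7 members, 6 of them negative (background 5.5% of genes negative and 4.84% positive). RNS1 had the largest positive value, 3.06 ± 1.19 (edgeR adjusted p = 0.454). An age dependence of the geralt effect was thus not established for any member by this test. DESeq2 called 1 member, PS2, with a negative value (background 0.211% of genes negative).

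Of 41 further phosphate genes, among them plastid and vacuolar transporters, noncoding RNAs, inositol pyrophosphate kinases and root growth regulators, 38 were tested and none passed edgeR's test over all 12 libraries in any of the 5 comparisons. Their median log2 fold change was 0.03 at 12 days and -0.03 at 5 days. The noncoding RNA AT4, which binds the microRNA that targets PHO2, had 0.974, 6.76 and 4.05 CPM in geralt at 12 days, against 13.0, 70.9 and 13.7 CPM in wild type (log2 fold change -3.05 ± 0.79, edgeR adjusted p = 0.0836). At 5 days AT4 had 1.19, 0.558 and 0.661 CPM in geralt, against 8.82, 2.80 and 7.72 CPM in wild type (log2 fold change -2.99 ± 0.81, edgeR adjusted p = 0.121). AT4 was thus below every wild-type library in every geralt library at each age, library 6 included. The related RNA IPS1 had 9 reads in geralt and 478 in wild type at 12 days (log2 fold change -5.94 ± 1.75, edgeR adjusted p = 0.115). Its level was 10.6 CPM in library 10, against 0.531 CPM in library 6 and 0.44 CPM in library 12.

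Among the other genes of that list, GDPD6, a relative of GDPD1, had 0, 0.2 and 0.0793 CPM in geralt at 12 days, against 1.70, 0.621 and 0.809 CPM in wild type, and here library 6 was the highest (log2 fold change -3.50 ± 0.99, edgeR adjusted p = 0.107). At 5 days it had 0.0275, 0.171 and 0.0551 CPM in geralt, against 1.28, 0.428 and 0.597 CPM in wild type (log2 fold change -3.14 ± 0.97, edgeR adjusted p = 0.173). LPR1, a ferroxidase by which the root tip senses low phosphate, had 28.5, 26.3 and 25.5 CPM in geralt at 5 days, against 6.21, 14.5 and 5.89 CPM in wild type (log2 fold change 1.59 ± 0.34, edgeR adjusted p = 0.0689). LPR1 was higher in all 3 geralt libraries at that age. With only the 6 libraries of 5 days LPR1 passed (edgeR adjusted p = 0.0311), as did AT4 (edgeR adjusted p = 0.0148), and LPR1 also passed without wild-type library 4 (log2 fold change 2.15, edgeR adjusted p = 0.0071). Over all genes the first of these fits called 633 lower and 327 higher, and the second 98 lower and 71 higher. How many other genes of the list passed in these fits is not given here. Over the 22 alternatives the adjusted p ran from 0.00085 to 0.294 for LPR1 and from 0.00208 to 0.403 for AT4 at 5 days, the lowest of each from DESeq2.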

How the data were processed

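Whole-seedling RNA was measured in 12 libraries of 4 groups, 3 each, grouped by the titles. The authors deposited counts of total, unique and exon reads per gene against TAIR10, per the file headers and the submitters' processing notes. TPM per gene were also computed and deposited by the authors. Neither aligner, counter nor use of strand is given in the sources used here, so reads of overlapping or antisense genes cannot be told apart. The authors' deposited tables give log2 fold changes, p-values and FDR per the file headers, with a test not given there.

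Total gene reads were fitted with edgeR 4.0.16 in R 4.3.3: filterByExpr by group (21122 of 27655 genes kept), TMM, a quasi-likelihood test over all 12 libraries with 8 residual degrees of freedom, and Benjamini-Hochberg adjustment over all genes at 0.05. SE is the absolute log2 fold change over the square root of F. DESeq2 1.42.0, other filters, scalings, read classes and left-out libraries were alternatives. In a test on simulated 12-day counts over 20919 genes, the calls included 61 of 71 genes altered 4-fold and 6 of 63 altered 2-fold. Those counts were drawn independently from a mean and a dispersion per gene, and only genes above an expression floor were altered. No simulated library diverged over many genes together, so these rates need not hold for the members. No library was a copy of another: within groups, chi-square over degrees of freedom ran from 69.5 to 517.7.

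Members and gene lists were chosen with earlier results of these data known. Named in full were members past the threshold, the smallest p of each class at 12 days and, of the further lists, up to 3 genes a comparison, with other members added after their values were seen. Promoter windows came from RefSeq TAIR10.1, in which 27432 of 27445 chromosomal genes had the start and end given in the files. Counting ratios carry 95% exact intervals.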

Additional observations from a re-analysis of the deposited data

How the results depend on the processing

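No paired analysis was possible because the library numbers in the titles are not shared between groups. At 12 days geralt against wild type gave 4 members and 169 genes in all. The counts were 10 and 1376 with DESeq2, 0 and 7 with only the 6 libraries of that age, 0 and 5 without wild-type libraries 10 and 12, and 0 and 62 without geralt library 5 and wild-type library 4. With each library left out in turn they ran from 0 to 9 members and from 4 to 504 genes. Without libraries 10 and 12, library 6 was the lone wild-type library at 12 days. In that fit the log2 fold changes of PEPC1 and PAP17 were near 0, at 0.07 and 0.03. Those of PHT1;3 and PHT1;5 were 0.89 and 1.55, from 3 and 27 reads in library 6, and the cause was not tested. For each of these genes libraries 10 and 12 were above library 6, so leaving them out had to move the values upward. At 5 days 0 members and 55 genes were called. The counts were 3 and 903 with DESeq2, 3 and 960 with only the 6 libraries of that age, 1 and 185 without wild-type libraries 10 and 12, and 547 genes without geralt library 5 and wild-type library 4. Leaving out each library gave 0 to 2 members and 4 to 314 genes.

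Contrasts of age in geralt gave 60 genes with DESeq2, 5 without geralt library 5 and wild-type library 4, and 0 to 8 with 1 library left out, with 0 members in each. In wild type DESeq2 called 10 members and 1134 genes, and leaving out a library gave 0 to 11 members and 0 to 426 genes. The interaction gave 1 member and 63 genes with DESeq2, and 0 to 1 member and 0 to 2 genes with 1 library left out. Other size factors, unique reads, exon reads, organellar genes left out and no filter on low counts left the 4 members of 12 days past the threshold, and a filter of 1 CPM in 3 libraries removed PAP14 from the genes tested. Depth limits SPX3, PHT1;6, PHT1;7, PHT1;8, PAP23 and PAP25, whose ratios carry counting error alone.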
